A study of Mus musculus with 27 samples.

Results

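Progression through the G1 phase of the cell cycle is set by D cyclins and the proteins that restrain them, and 10 genes of this machinery were followed through the growth and irradiation of mouse thyroid gland organoids (mTGOs). They are the INK4 inhibitors Cdkn2a, Cdkn2b, Cdkn2c and Cdkn2d, the CIP/KIP inhibitors Cdkn1b and Cdkn1c, the D cyclins Ccnd1, Ccnd2 and Ccnd3, and Lmnb1, which encodes lamin B1 of the nuclear envelope. The genes were chosen by name, as brakes of arrest and senescence other than Cdkn1a together with the D cyclins and Lmnb1. Earlier results of these data were known when the genes and the gene lists below were chosen. The members are 10 of the 50559 genes of the count table. All 10 had enough counts to be tested in each comparison. The mTGOs were grown from thyroid glands of 8 to 12 weeks old female C57BL/6 mice, in Matrigel with EGF, FGF2, the ROCK inhibitor Y27632 and B27, and no group carried a transgene or knockdown. Organoids grew for 5 days, were left without irradiation (0 Gy) or received 2, 4 or 7 Gy of photons, and were collected at day 7 or 11, while a further non-irradiated group was collected at day 5. Each of the 9 groups had 3 libraries, 1 from each of the cultures mTG11, mTG12 and mTG14, and values given below as 3 numbers follow that order. The labels number 3 mice per group without tying them to the culture names, and the series text speaks of 4 mice, so the p-values measure the spread between 3 recurring cultures.

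D cyclins bind CDK4 and CDK6, and the complex phosphorylates the retinoblastoma protein, which frees E2F factors to switch on genes for DNA synthesis. INK4 proteins bind CDK4 and CDK6 in place of a D cyclin, whereas the CIP/KIP proteins bind cyclin-CDK complexes more broadly and act mainly on CDK2. Cdkn2a holds p16Ink4a, an INK4 protein, and p19Arf, which stabilizes p53 by binding Mdm2. Arrest after radiation is typically started through p53 and Cdkn1a, senescent cells often accumulate the products of Cdkn2a and Cdkn2b, and loss of lamin B1 is a widely used sign of senescence.

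Cdkn2a, Cdkn2b and Cdkn2c lie on chromosome 4 of GRCm39, at 89192708 to 89212890, 89223204 to 89229276 and 109517957 to 109524386, all on the minus strand. Cdkn2d is on chromosome 9 (21199700 to 21202727, minus), Cdkn1b on chromosome 6 (134897364 to 134902476, plus) and Cdkn1c on chromosome 7 (143012069 to 143014806, minus). The D cyclin genes are on chromosome 7 (Ccnd1, 144483668 to 144493662, minus), chromosome 6 (Ccnd2, 127102125 to 127129156, minus) and chromosome 17 (Ccnd3, 47815767 to 47910624, plus). The counts come from the 3′ ends of transcripts, so p16Ink4a and p19Arf, which differ in their first exon and share the later exons, are counted together as Cdkn2a. In the GENCODE annotation 9 of the 10 genes are overlapped by a gene on the other strand, which was counted for 5 of them. Over the 27 libraries these were 1645 counts of LTO1 beside 90470 of Ccnd1, 2156 of Bysl beside 8211 of Ccnd3, and 597 of Marchf3 beside 4795 of Lmnb1. Whether strand was used in counting is not given in the sources used here, so reads of such pairs cannot be told apart.

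The promoters printed are those of Cdkn2a and Cdkn2b, neighbours that rose together with days in culture, and Cdkn1b, which moved opposite to Cdkn2b with dose. Cdkn2c, Cdkn2d and Ccnd3 also had windows and changes described below, and their windows are not printed. RefSeq windows (GRCm38.p6, a build other than that of the gene positions above) were matched for 6 of the 10 genes, 9 windows in all, and the 250 bases before the annotated start are printed 5′ to 3′. None was read for Ccnd1, Ccnd2, Cdkn1c and Lmnb1. Capitals mark matches on either strand to the cAMP response element TGACGTCA, the AP-1 site TGACTCA or TGAGTCA, the CCAAT box CCAAT or ATTGG, and E2F-type sites spelled TTTCCCGC, TTTCGCGC, TTTGCCGC or TTTGGCGC, and no 2 matches overlapped in the printed windows. Of 32851 windows of the same length, 1.55% held the cAMP response element, 4.46% the AP-1 site, 33.8% a CCAAT box and 1.86% an E2F-type site. The Cdkn2b window (chr4:89311033-89311282, minus strand) held the cAMP response element at -46, counted from the start. The upstream start of Cdkn2a, that of p19Arf (chr4:89294620-89294869, minus strand), held an E2F-type site at -99, and the downstream start, that of p16Ink4a (chr4:89282193-89282442, minus strand), held none of these motifs. The Cdkn1b window (chr6:134920151-134920400, plus strand) held CCAAT boxes at -161 and -35. Of the windows not printed, that of Cdkn2d held a CCAAT box at -220 and a window of Ccnd3 held the same motif at -108. Those of Cdkn2c held none of these motifs. These are matches of letters only, and binding was not measured.
Cdkn2b promoter: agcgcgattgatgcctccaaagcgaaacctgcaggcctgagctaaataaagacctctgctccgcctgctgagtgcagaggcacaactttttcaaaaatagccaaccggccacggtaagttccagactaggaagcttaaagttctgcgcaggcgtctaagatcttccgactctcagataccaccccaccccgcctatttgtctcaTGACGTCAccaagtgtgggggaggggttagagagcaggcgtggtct
Cdkn2a promoter, p19Arf start: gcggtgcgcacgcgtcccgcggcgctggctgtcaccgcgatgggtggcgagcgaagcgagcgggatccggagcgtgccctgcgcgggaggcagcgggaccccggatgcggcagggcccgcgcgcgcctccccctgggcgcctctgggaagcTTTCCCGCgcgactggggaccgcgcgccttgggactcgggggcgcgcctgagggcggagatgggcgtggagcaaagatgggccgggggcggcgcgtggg
Cdkn2a promoter, p16Ink4a start: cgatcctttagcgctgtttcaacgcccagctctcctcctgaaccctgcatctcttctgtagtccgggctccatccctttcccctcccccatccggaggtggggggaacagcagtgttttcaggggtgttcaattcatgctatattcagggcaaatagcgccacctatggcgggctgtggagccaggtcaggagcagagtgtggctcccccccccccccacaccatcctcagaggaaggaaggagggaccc
Cdkn1b promoter: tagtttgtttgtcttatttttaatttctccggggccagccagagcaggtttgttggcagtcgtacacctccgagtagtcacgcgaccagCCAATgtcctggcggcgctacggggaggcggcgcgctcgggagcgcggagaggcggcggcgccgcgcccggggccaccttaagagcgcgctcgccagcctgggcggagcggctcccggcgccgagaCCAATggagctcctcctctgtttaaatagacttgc

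Library totals ranged from 2528866 to 5723150 counts, and levels are given as CPM, each count divided by its library total and multiplied by 1e+06. A limit of 3 counts stood for 0.524 to 1.19 CPM, which covers counting error only, and the lowest count of any of the 10 genes in any library was 8. CPM values were not divided by transcript length and are compared between groups, not between genes. The labelled tissue was checked against its markers. Among 10 follicular markers, Slc5a5, Iyd and Tshr had 6, 6 and 11 counts over the 27 libraries and Tg averaged 2.74 CPM. Of the thyroid transcription factors, Pax8 and Hhex averaged 0.229 and 0.270 CPM and Foxe1 and Nkx2-1 29.8 and 12.5 CPM, and the oxidase gene Duox2 averaged 27.6 CPM, from 0 to 93.8 CPM. Keratins of basal and stratified epithelium were high, with Krt5 averaging 4041 CPM and Krt13 3699 CPM. Of the other cell types, 5 of 6 endothelial markers never exceeded 3 counts in a library (Emcn and Cldn5 were at 0). Of 7 immune markers 3 never exceeded 3 counts (Cd3e of T cells was at 0), while Lyz2 reached 16.2 CPM. Of 3 parathyroid markers Gcm2 was at 0, while Pth reached 4.56 CPM. The 10 fibroblast markers summed to 97.2 to 155 CPM as group means. In bulk RNA, fewer cells of a type and less RNA per cell cannot be told apart.

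**Figure D1:**
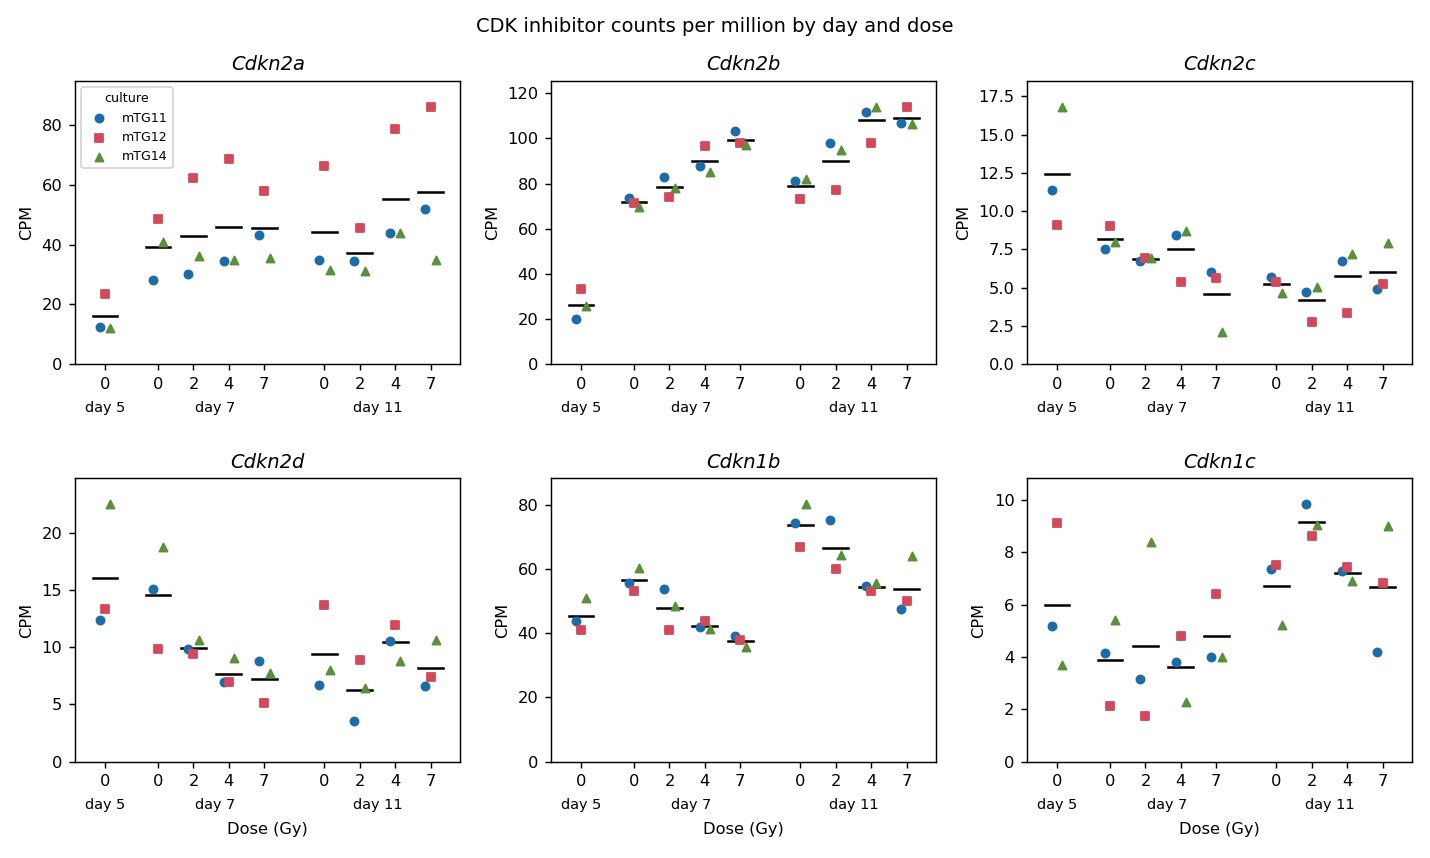
CPM of the 6 CDK inhibitor genes in each library, by dose in Gy and day of collection, with points coloured by culture and black bars at the means of 3 libraries. Cdkn2a and Cdkn2b were lowest at day 5 and Cdkn1b was lowest at day 7 after 7 Gy, and culture mTG12 had the highest Cdkn2a value in each of the 9 groups.

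The first question was how the brakes moved while organoids grew without irradiation. Between days 5 and 11 the brakes did not move as a block. Cdkn2a, Cdkn2b and Cdkn1b rose, Cdkn2c fell, and the D cyclins Ccnd1 and Ccnd2 rose beside them while Ccnd3 and Lmnb1 fell. In total 8 of 10 genes were called (5 higher, 3 lower; edgeR quasi-likelihood test, adjusted p under 0.05), where 41.3% of the 18442 genes tested were called. From day 5 to day 7 it was 6 of 10 (5 higher, 1 lower) beside 21.6% of all genes, and from day 7 to day 11 it was 3 of 10 (2 higher, 1 lower) beside 21.2%. The 3 comparisons share libraries. The median log2 fold change of the 10 genes from day 5 to day 11 was 0.43, and that of all genes tested was 0.06.

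Cdkn2b, the INK4 gene known as a target of TGF-β signalling, stood at 19.8, 33.5 and 25.8 CPM at day 5, at 73.8, 71.6 and 69.7 CPM at day 7, and at 80.9, 73.2 and 82.2 CPM at day 11. All libraries of days 7 and 11 were above all libraries of day 5, and days 7 and 11 overlapped. The fitted log2 fold change was 1.60 ± 0.14 (SE, adjusted p = 2.3e-05) at day 7 and 1.73 ± 0.14 (adjusted p = 1.48e-06) at day 11, both against day 5. From day 7 to day 11 it was 0.13 with a 95% interval of -0.13 to 0.40.

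Cdkn2a was at 12.4, 23.6 and 12.0 CPM at day 5, 28.1, 48.5 and 40.9 CPM at day 7, and 34.8, 66.2 and 31.6 CPM at day 11. As for Cdkn2b, both later days lay above day 5 and overlapped each other. The log2 fold change was 1.47 ± 0.34 (adjusted p = 0.00809) from day 5 to day 7 and 1.63 ± 0.33 (adjusted p = 0.00187) from day 5 to day 11. Culture mTG12 was the highest in 9 of 9 groups, with a mean of 59.8 CPM over its 9 libraries against 34.8 CPM in mTG11 and 33.5 CPM in mTG14.

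Cdkn2c, which encodes p18Ink4c, fell from 11.4, 9.12 and 16.8 CPM at day 5 to 5.71, 5.36 and 4.67 CPM at day 11, without overlap (log2 fold change -1.11 ± 0.25, adjusted p = 0.00317). These are 17 to 59 counts per library, and day 7 lay between, at 7.56, 9.01 and 7.98 CPM. Cdkn2d (p19Ink4d) was not called between days by edgeR with the filter, at 16.1 ± 5.60 CPM (SD, n = 3) at day 5 and 9.44 ± 3.73 at day 11, a log2 difference of -0.65 with a 95% interval of -1.36 to 0.06. It was called without mTG12 of day 11 (adjusted p = 0.0415) and without the filter on low counts (0.0163), and stood at -0.31 without mTG14 of day 5 and -0.44 without mTG11 of day 11. From day 7 to 11 Cdkn2d was at -0.64 (adjusted p = 0.185, and 0.0244 without the filter).

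Cdkn1b (p27Kip1), the CIP/KIP inhibitor of resting cells, rose stepwise with days. Its values were 43.8, 41.1 and 51.0 CPM at day 5, 55.8, 53.3 and 60.5 CPM at day 7, and 74.5, 66.8 and 80.3 CPM at day 11, so no 2 days overlapped. The log2 fold change was 0.46 ± 0.12 (adjusted p = 0.0191) from day 5 to 7, 0.38 ± 0.12 (adjusted p = 0.0357) from day 7 to 11 and 0.85 ± 0.12 (adjusted p = 0.000155) from day 5 to 11. The first step was lost without mTG11 of day 5 (adjusted p = 0.0553), mTG12 of day 5 (0.075) or mTG14 of day 7 (0.0771), and the second without mTG11 (0.0751) or mTG14 (0.137) of day 11 or mTG11 (0.105) or mTG12 (0.106) of day 7, and with DESeq2 (0.0574). Cdkn1c (p57Kip2), at 1.74 to 9.85 CPM over all 27 libraries, was not called in any comparison, and its interval from day 5 to day 11 ran from -0.44 to 1.13.

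**Figure D2:**
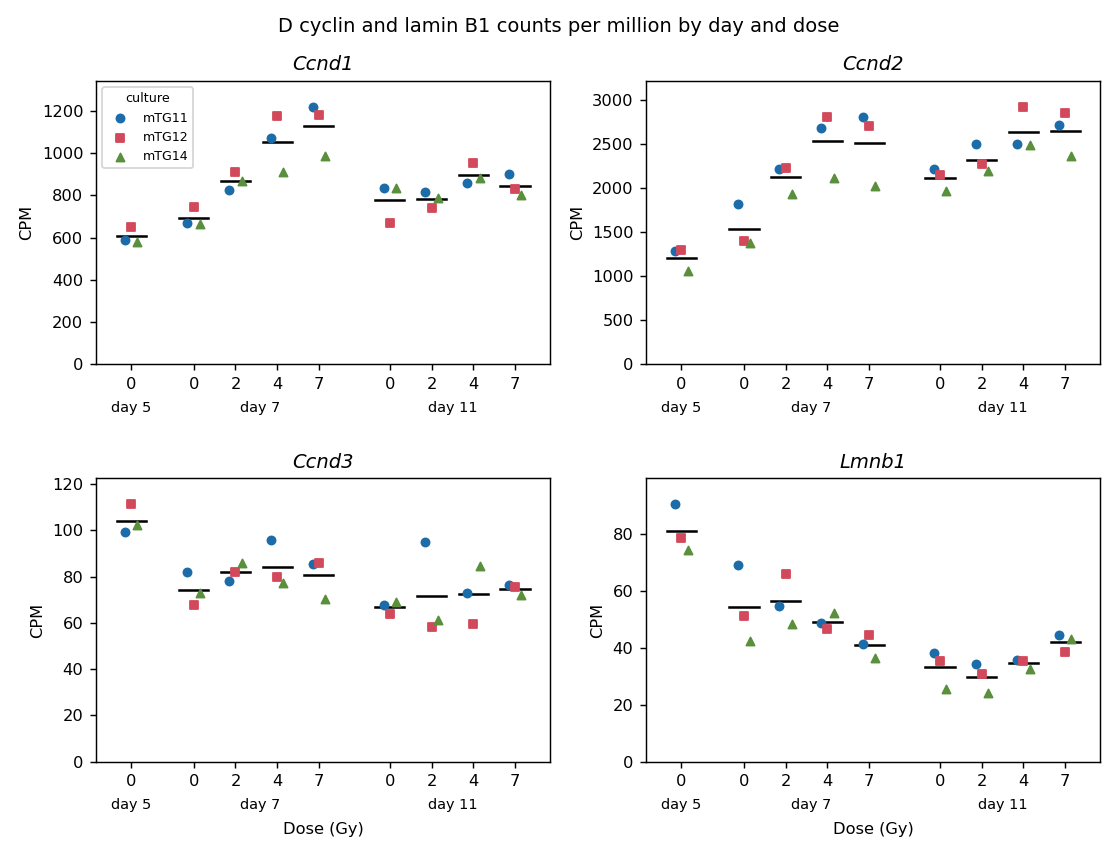
CPM of the D cyclin genes and Lmnb1 in each library, by dose in Gy and day of collection, with points coloured by culture and black bars at the means of 3 libraries. Mean Ccnd1 rose with each dose at day 7. Ccnd2 was higher after irradiation at day 7, with means of 2531 CPM at 4 Gy and 2503 CPM at 7 Gy. Lmnb1 fell from a mean of 80.9 CPM at day 5 to 33.0 CPM at day 11 without irradiation.

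Ccnd2 (cyclin D2) was at 1279, 1292 and 1054 CPM at day 5, 1819, 1397 and 1371 CPM at day 7, and 2214, 2140 and 1965 CPM at day 11. The days did not overlap, and each step was called: 0.48 ± 0.11 (adjusted p = 0.00748) from day 5 to 7 and 0.46 ± 0.11 (adjusted p = 0.00923) from day 7 to 11. Ccnd1 (cyclin D1) rose less, from 590, 651 and 579 CPM at day 5 to 833, 668 and 834 CPM at day 11, a log2 fold change of 0.51 ± 0.11 (adjusted p = 0.00223). Its step to day 7 (0.34 ± 0.11, adjusted p = 0.039) was lost without any 1 of 5 libraries (the 3 of day 5, and mTG12 and mTG14 of day 7; adjusted p = 0.0574 to 0.13). Ccnd3 (cyclin D3) fell, from 99.3, 111 and 102 CPM at day 5 to 82.1, 67.7 and 72.8 CPM at day 7 and 67.6, 63.6 and 69.0 CPM at day 11. Its log2 fold change was -0.34 ± 0.09 (adjusted p = 0.0199) to day 7 and -0.50 ± 0.09 (adjusted p = 0.0011) to day 11, the former lost without mTG12 of day 5 (0.0709) or of day 7 (0.0744).

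Lmnb1 went from 90.3, 78.3 and 74.1 CPM at day 5 to 68.8, 51.2 and 42.5 CPM at day 7 and 38.1, 35.4 and 25.6 CPM at day 11. The days did not overlap. The fall was called from day 5 to 11 (-1.15 ± 0.17, adjusted p = 0.000174) and from day 7 to 11 (-0.71 ± 0.17, adjusted p = 0.0107), while the first step of -0.44 ± 0.16 was not (adjusted p = 0.074). With the culture as a replicate block the first step was called too (adjusted p = 0.00458), as it was without mTG11 of day 7 (-0.62, adjusted p = 0.0197).

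These day comparisons depended on the scaling. Library totals in place of TMM factors moved the median log2 fold change of all genes by -0.14 against day 5, for day 7 and for day 11, and the share of called genes that rose by day 7 from 55.5% to 35.9% (by day 11 from 51.4% to 39.9%). On that scale the day 7 rises of Cdkn1b (0.31, adjusted p = 0.073), Ccnd1 (0.19, adjusted p = 0.209) and Ccnd2 (0.34, adjusted p = 0.0583) were no longer called and the fall of Lmnb1 was (-0.58, adjusted p = 0.031). No call of day 11 against day 5 among the 10 genes changed.

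Genes around the members moved as follows from day 5 to day 11, where 41.3% of all genes tested were called (3921 higher, 3700 lower). Of 6 partner kinases and later cyclins, 0 rose and 6 fell (median log2 -1.66), led by Ccna2, cyclin A2 (-3.16 ± 0.17), and Ccne2, cyclin E2 (-2.71 ± 0.19). CDK4 and CDK6, named here after their values were seen, were among them, with Cdk4 at -0.93 and Cdk6 at -0.45. Of 13 RB family and E2F genes, 2 rose (Rb1, 0.63 ± 0.20, and Tfdp2, 0.45 ± 0.16) and 7 fell, E2f2 by the most of those named here (-4.50 ± 0.45) with Tfdp1 at -1.52 ± 0.16. E2f2 was at 12.9 to 17.6 CPM at day 5 and 0 to 0.962 CPM at day 11. The latter is near the limit of 3 counts, so the size of its fall is uncertain. All 17 proliferation genes fell, with a median of -2.82 beside 0.06 for all genes tested, and the survivin gene Birc5 went from 133 to 145 CPM over the day 5 libraries to 9.25 to 11.4 CPM over those of day 11.

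Of 24 regulators of the inhibitors, 8 rose and 6 fell from day 5 to day 11. The counts of this and the next lists also stand beside 41.3% of all genes. Id2, which encodes an inhibitor of DNA binding, rose by 1.22 ± 0.10. Cks1b, whose product helps SKP2 mark p27Kip1 for degradation, was at -1.97 ± 0.11, and Ezh2, the Polycomb methyltransferase gene that represses Cdkn2a in other settings, at -1.52 ± 0.13. Of 8 nuclear lamina genes other than Lmnb1, 0 rose and 4 fell, Lmna by the most of those named (-1.49 ± 0.13, with Banf1 at -0.83 ± 0.09). Of 16 tested genes of senescence-associated secretion, 6 rose, including Il1a (4.38 ± 0.31) and Vegfa (1.76 ± 0.12), and 4 fell, including Ccl2 (-3.32 ± 0.47). Of 8 genes of the p53 arm, 5 rose, including Sesn2 (1.77 ± 0.21) and Gdf15 (2.93 ± 0.39), and 2 fell (Trp53, -0.78 ± 0.09, and Phlda3, -0.52 ± 0.12). At day 5 Gdf15 was at 0.760 to 2.07 CPM and Il1a at 1.03 to 4.94 CPM. Their lowest libraries were near the limit of 3 counts, so the size of these rises is uncertain. The makeup of the organoids also moved with days: summed basal and stratified markers went from 17396 to 21682 CPM at day 5 to 7840 to 9366 CPM at day 11, general epithelial markers from 943 to 1181 CPM to 2919 to 4039 CPM, and 5 multiciliated markers from 3.42 to 12.0 CPM to 30.8 to 72.6 CPM. The part of these shifts in the changes of the 10 genes was not tested.

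**Figure D3:**
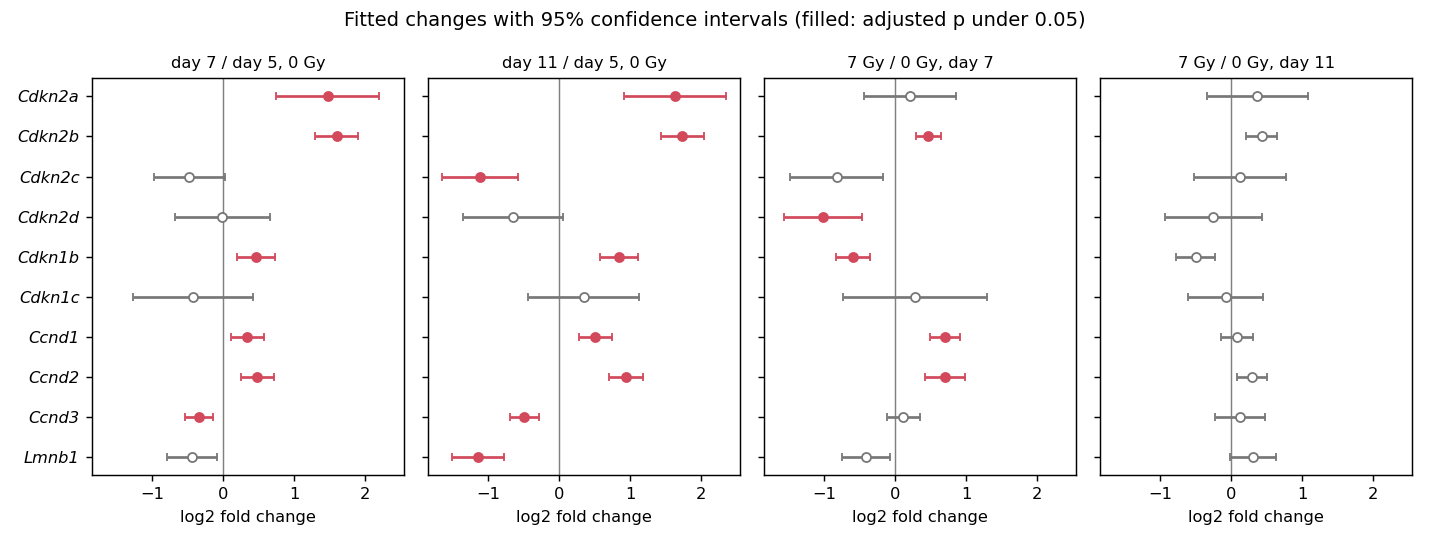
Fitted log2 fold changes of the 10 genes with 95% confidence intervals, for days 7 and 11 against day 5 without irradiation and for 7 Gy against 0 Gy at days 7 and 11. Filled red points passed an adjusted p of 0.05: 6, 8, 5 and 0 of 10 genes from left to right.

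The second question was what irradiation did to the same genes. At day 7 a dose of 7 Gy raised Ccnd1, Ccnd2 and Cdkn2b and lowered Cdkn1b and Cdkn2d, while Cdkn2a and Lmnb1 were not called. That is 5 of 10 genes (3 higher, 2 lower) beside 6.95% of the 19346 genes tested. At 4 Gy it was 3 of 10 (Ccnd1 and Ccnd2 higher, Cdkn1b lower) beside 1.63%. At 2 Gy none was called by edgeR beside 0.124% of all genes, and none by DESeq2, which called 59 genes. An unadjusted p under 0.05 was found for 4 of the 10, beside 1629 of the 19346 genes. The 3 doses share their 0 Gy libraries. A straight line through all 4 doses called 5 of 10 (3 higher, 2 lower) beside 8.62%, the same 5 genes as 7 Gy, and the median fold change of the 10 genes at 7 Gy was 0.16 beside 0.01 for all genes.

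Ccnd1 rose with dose at day 7. It was at 668, 744 and 663 CPM at 0 Gy, 827, 913 and 870 CPM at 2 Gy, 1071, 1178 and 912 CPM at 4 Gy, and 1220, 1181 and 989 CPM at 7 Gy. All irradiated libraries lay above all non-irradiated ones, the 7 Gy libraries lay above those of 2 Gy, and 4 Gy overlapped both. The log2 fold change was 0.30 ± 0.10 (adjusted p = 0.395) at 2 Gy, 0.55 ± 0.10 (adjusted p = 0.0105) at 4 Gy and 0.70 ± 0.10 (adjusted p = 0.00075) at 7 Gy, a slope of 0.10 ± 0.01 per Gy (adjusted p = 0.000471). The 4 Gy call was lost without mTG12 of 4 Gy (adjusted p = 0.0742) or mTG11 of 0 Gy (0.052).

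Ccnd2 was at 2210, 2226 and 1924 CPM after 2 Gy, 2672, 2807 and 2115 CPM after 4 Gy and 2797, 2697 and 2016 CPM after 7 Gy, against 1819, 1397 and 1371 CPM at 0 Gy. All 9 irradiated libraries were above the 3 controls, and mTG14 was the lowest library of its group here and in each of the 9 groups of the study. The log2 fold change was 0.45 ± 0.13 (adjusted p = 0.373; 0.0128 with the replicate block) at 2 Gy, 0.68 ± 0.13 (adjusted p = 0.0188) at 4 Gy and 0.71 ± 0.13 (adjusted p = 0.0057) at 7 Gy. The 4 Gy call was lost without mTG11 (adjusted p = 0.082) or mTG12 (0.0979) of 4 Gy, or mTG12 (0.0679) or mTG14 (0.0847) of 0 Gy. Ccnd3 was not called, with a log2 difference of 0.12 at 7 Gy and a 95% interval of -0.12 to 0.35.

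Cdkn2b rose in small steps with dose at day 7, from 73.8, 71.6 and 69.7 CPM at 0 Gy to 83.0, 73.9 and 78.2 CPM at 2 Gy, 87.7, 96.6 and 85.1 CPM at 4 Gy and 103, 98.2 and 97.1 CPM at 7 Gy. No 2 doses overlapped. The log2 fold change at 7 Gy was 0.47 ± 0.08 (adjusted p = 0.004), it was 0.28 ± 0.08 at 4 Gy (adjusted p = 0.127), and the slope was 0.07 ± 0.01 per Gy (adjusted p = 0.000977). Against the 0 Gy library of its own culture, 7 Gy gave a log2 CPM ratio of 0.48, 0.46 and 0.48.

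Cdkn2a, its neighbour, was at 43.1, 58.1 and 35.7 CPM after 7 Gy against 28.1, 48.5 and 40.9 CPM at 0 Gy, and the groups overlapped. The log2 difference was 0.21 with a 95% interval of -0.44 to 0.86 (adjusted p = 0.752). Within cultures it was 0.62 in mTG11, 0.26 in mTG12 and -0.20 in mTG14. With the culture as a replicate block the log2 difference was 0.21 (adjusted p = 0.435).

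Cdkn1b and Cdkn2d moved the other way. Cdkn1b was at 53.8, 41.2 and 48.6 CPM after 2 Gy, 42.0, 43.7 and 41.2 CPM after 4 Gy and 39.1, 38.0 and 35.7 CPM after 7 Gy, against 55.8, 53.3 and 60.5 CPM at 0 Gy. The 4 and 7 Gy libraries were below every control, with a log2 fold change of -0.47 ± 0.11 at 4 Gy (adjusted p = 0.0486) and -0.60 ± 0.11 at 7 Gy (adjusted p = 0.00551). The 4 Gy call was lost without any 1 of the 6 compared libraries (adjusted p = 0.0675 to 0.165) and with library totals in place of TMM (0.0849), while the slope of -0.08 ± 0.02 per Gy (adjusted p = 0.00264) was kept without each library in turn.

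Cdkn2d fell from 15.1, 9.81 and 18.8 CPM at 0 Gy to 8.77, 5.14 and 7.72 CPM at 7 Gy, with 20 to 35 counts in the irradiated libraries and no overlap (-1.02 ± 0.26, adjusted p = 0.0279). This call was lost without mTG12 (adjusted p = 0.116) or mTG14 (0.0591) of 7 Gy, or mTG11 (0.0711) or mTG14 (0.129) of 0 Gy, and when only the compared groups were fitted (0.0684). Its slope, -0.15 ± 0.04 per Gy (adjusted p = 0.0177), was lost without mTG12 of 7 Gy (0.0677), mTG11 of 0 Gy (0.0523) or mTG14 of 0 Gy (0.0807). At 4 Gy it was at 7.00, 6.99 and 9.06 CPM (-0.97 ± 0.25, adjusted p = 0.0754), called with the replicate block (0.00918) or without mTG12 of 0 Gy (0.0279). Cdkn2c was at 6.02, 5.65 and 2.13 CPM after 7 Gy, below each of the controls at 7.56, 9.01 and 7.98 CPM, and was not called (-0.83, 95% interval -1.48 to -0.18, adjusted p = 0.126), except without the filter on low counts (0.0426).

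Lmnb1 at day 7 was at 41.4, 44.5 and 36.5 CPM after 7 Gy against 68.8, 51.2 and 42.5 CPM at 0 Gy. The groups overlapped, and the log2 difference of -0.41 had a 95% interval of -0.75 to -0.07 (adjusted p = 0.146, and 0.037 without the filter on low counts). The slope of -0.06 ± 0.02 per Gy was not called either (adjusted p = 0.0745), but it was with DESeq2 (0.0467) and without mTG14 of 0 Gy (-0.08, adjusted p = 0.0236).

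**Figure D4:**
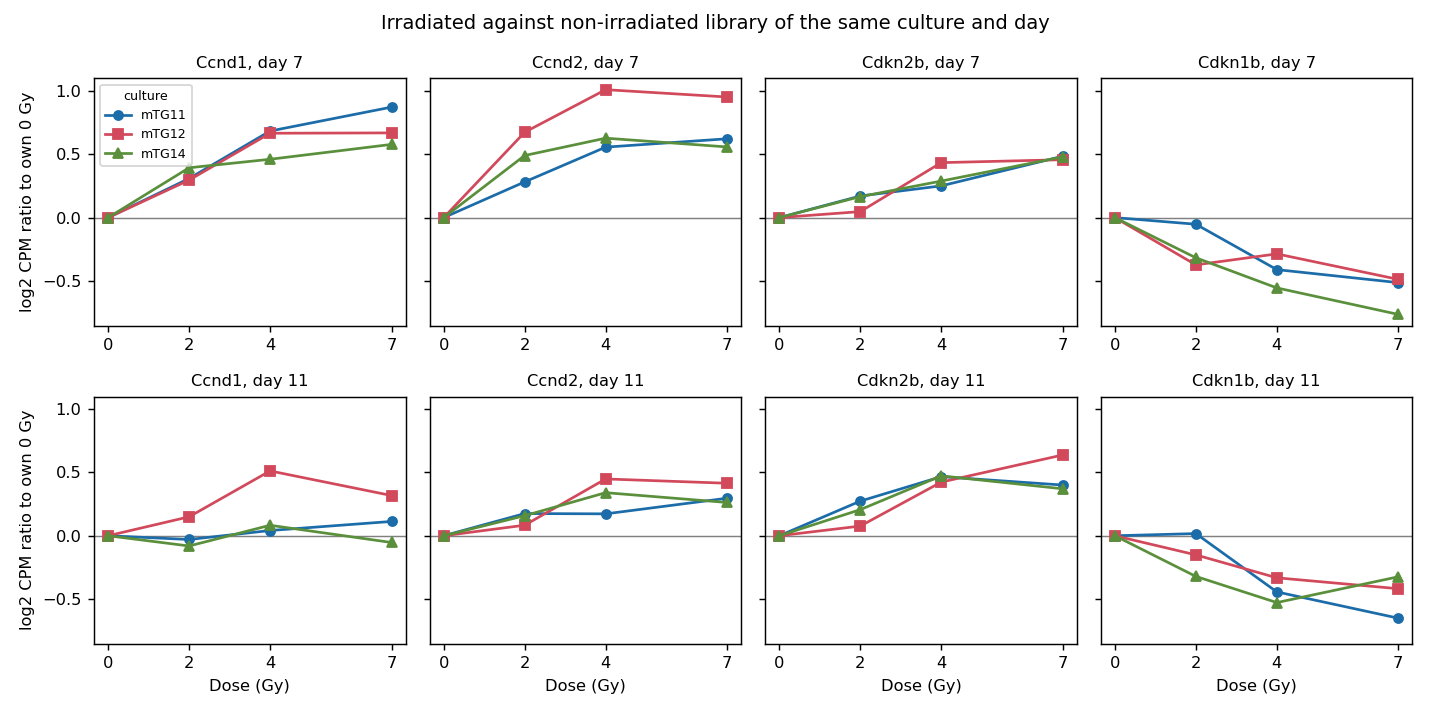
Log2 ratio of the CPM of each irradiated library to that of the 0 Gy library of the same culture and day, against dose in Gy, for Ccnd1, Ccnd2, Cdkn2b and Cdkn1b. Lines join the libraries of 1 culture, and at day 7 all 3 cultures rose for Ccnd1, Ccnd2 and Cdkn2b and fell for Cdkn1b at 7 Gy, and at day 11 the Ccnd1 ratios at 7 Gy were 0.11, 0.32 and -0.05.

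At day 11 none of the 10 genes was called at any dose. At 2 Gy that stood beside 0% of the 19901 genes tested (1159 genes at an unadjusted p under 0.05, 1 gene by DESeq2), and no member had an unadjusted p under 0.05. At 4 Gy it stood beside 0.00502%. There 3 members had an unadjusted p under 0.05 beside 1501 of the genes tested, and DESeq2 called 0 members beside 37 genes. At 7 Gy it stood beside 1.52%. There 3 members had an unadjusted p under 0.05 beside 2961 genes, and DESeq2 called 2 members beside 417 genes. With the replicate block the counts were 0, 2 and 3, beside 0.362%, 1.2% and 6.52% of all genes. The share of genes called at 7 Gy that were higher was 69.5%, and 79.6% with library totals. The slope over the 4 doses called 2 of 10 (1 higher, 1 lower) beside 2.51%.

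The members that passed in the slope were again Cdkn2b and Cdkn1b. Cdkn2b went from 80.9, 73.2 and 82.2 CPM at 0 Gy to 97.8, 77.2 and 94.8 CPM at 2 Gy, 112, 98.1 and 114 CPM at 4 Gy and 107, 114 and 106 CPM at 7 Gy. All libraries of 4 and 7 Gy were above the controls, the slope was 0.06 ± 0.02 per Gy (adjusted p = 0.0333), and the 7 Gy difference of 0.43 ± 0.10 had an adjusted p of 0.0587, which was 0.00621 with the replicate block and 0.0223 with DESeq2. At 4 Gy the difference was also 0.43 (adjusted p = 0.29, and 0.024 with the block).

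Cdkn1b at day 11 was at 75.4, 60.2 and 64.3 CPM after 2 Gy, 54.9, 53.1 and 55.8 CPM after 4 Gy and 47.5, 50.0 and 64.2 CPM after 7 Gy, against 74.5, 66.8 and 80.3 CPM at 0 Gy. The 4 and 7 Gy libraries were below every control. The slope was -0.07 ± 0.02 per Gy (adjusted p = 0.0318), and the 7 Gy difference was -0.50 ± 0.13 (adjusted p = 0.0703), which was 0.011 with the block, 0.0432 with DESeq2 and 0.0441 without mTG14 of 7 Gy (-0.64). The slopes were lost without any 1 of the 6 libraries of 0 and 7 Gy for Cdkn2b (adjusted p = 0.0537 to 0.0904), and for Cdkn1b without mTG11 (0.0692) or mTG14 (0.0944) of 0 Gy or mTG11 (0.112) or mTG12 (0.107) of 7 Gy.

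Ccnd2 at day 11 stood at 2717, 2850 and 2356 CPM after 7 Gy against 2214, 2140 and 1965 CPM at 0 Gy, without overlap. The log2 difference was 0.29 ± 0.10 and not called (adjusted p = 0.183), but it was with the block at 7 Gy (0.015) and at 4 Gy (0.0367), and in the slope with the block (0.0159) and with DESeq2 (0.0294). Cdkn2a was at 52.1, 86.2 and 35.0 CPM after 7 Gy against 34.8, 66.2 and 31.6 CPM, higher in 3 of 3 cultures and overlapping between groups (0.37, 95% interval -0.35 to 1.08, adjusted p = 0.685). With the replicate block Cdkn2a stood at 0.36 (adjusted p = 0.0934). Lmnb1 was at 44.6, 38.3 and 42.9 CPM after 7 Gy, above each control at 38.1, 35.4 and 25.6 CPM, and was not called (0.31, 95% interval -0.02 to 0.63, adjusted p = 0.368). Cdkn2c, Cdkn2d, Cdkn1c and Ccnd3 had intervals at 7 Gy that included 0.

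Of the 10 genes, Ccnd1 responded to 7 Gy differently at days 7 and 11 by a test of the difference. It was 1220, 1181 and 989 CPM after 7 Gy at day 7, and 901, 832 and 804 CPM at day 11 against 833, 668 and 834 CPM at 0 Gy, where the groups overlapped. The day 11 response minus the day 7 response was -0.59 ± 0.14 (adjusted p = 0.0206), 1 of 10 genes (0 higher, 1 lower) beside 3.02% of 21928 genes. It was lost without mTG11 of 0 Gy (0.0663) or of 7 Gy (0.0788) at day 7, or, at day 11, without mTG11 (0.0614) or mTG14 (0.0656) of 0 Gy or mTG12 (0.0608) or mTG14 (0.0692) of 7 Gy. The replicate block called 3 of 10, adding Ccnd2 (-0.38, adjusted p = 0.0455) and Lmnb1 (0.74, adjusted p = 0.022), beside 5.27%. Without the block Lmnb1 stood at 0.75 (adjusted p = 0.0847), and at 0.86 (adjusted p = 0.0486) without mTG14 of 0 Gy at day 7. For Cdkn2b the difference between days was -0.01 with a 95% interval of -0.27 to 0.26, and for Cdkn1b it was 0.13, from -0.22 to 0.47.

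**Figure D5:**
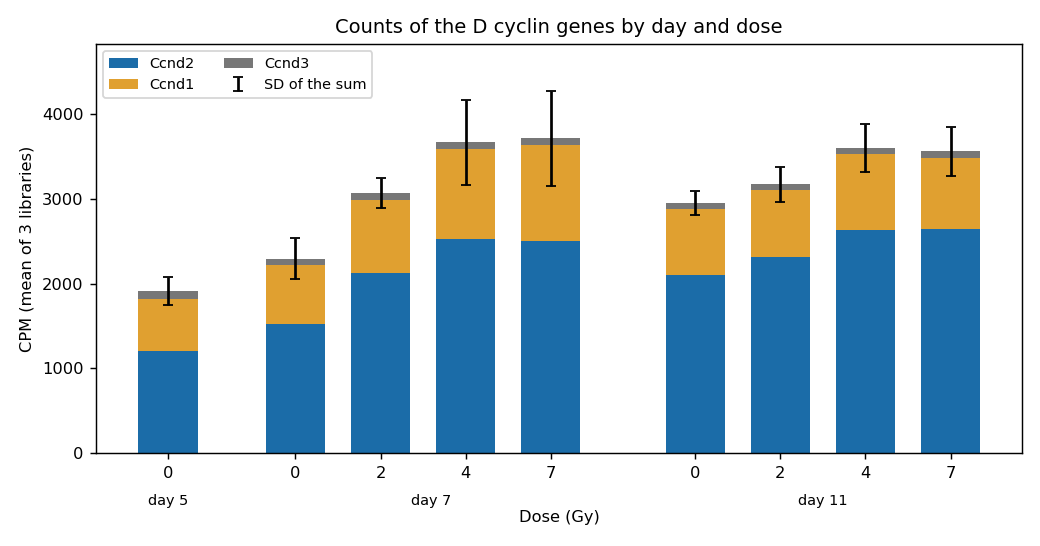
Mean CPM of Ccnd2, Ccnd1 and Ccnd3 stacked for each day and dose in Gy (3 libraries per group). Error bars are the SD of the sum of the 3 genes, which ran from a mean of 1919 CPM at day 5 to 3714 CPM at day 7 after 7 Gy.

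As a description without a test, the counts of the D cyclin genes were added up. The sum was 1919 ± 165 CPM (SD, n = 3) at day 5, 2294 ± 243 at day 7 and 2952 ± 141 at day 11 without irradiation, and 3714 ± 558 at day 7 and 3562 ± 287 at day 11 after 7 Gy. Ccnd2 made up 62.9% ± 2.11 of these counts at day 5, 66.4% ± 3.95 at day 7 and 71.4% ± 3.01 at day 11, and Ccnd3 5.45% ± 0.423, 3.24% ± 0.198 and 2.26% ± 0.126. At day 7 the Ccnd2 share was 67.3% ± 1.47 after 7 Gy, within the range of the control libraries. These are shares of 3′-end counts, not divided by length.

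Around the members, 7 Gy at day 7 raised part of the p53 arm: 4 of 8 genes rose and 0 fell (median 1.18), including Mdm2 (1.72 ± 0.15) and Cdkn1a, the inhibitor not among the 10 (1.29 ± 0.12). Of 17 proliferation genes 0 rose and 7 fell (median -0.66), including Mki67 (-1.47 ± 0.17) and Cdc20 (-0.78 ± 0.12). Of 6 partner kinases and later cyclins 0 rose and 1 fell, Ccna2 (-0.82 ± 0.16), and none of 13 RB family and E2F genes was called. Of 24 regulators of the inhibitors 1 rose, Myc (0.45 ± 0.10), and 5 fell, including Id2 (-0.87 ± 0.16) and Ezh2 (-0.68 ± 0.13). Of 8 lamina genes 0 rose and 2 fell, Tmpo (-0.52 ± 0.10) and the lamin B receptor gene Lbr (-0.77 ± 0.15). Of 18 genes of senescence-associated secretion 5 rose, including the chemokines Cxcl1 (1.41 ± 0.16) and Cxcl2 (1.59 ± 0.23), and 2 fell, including Vegfa (-0.76 ± 0.20). All genes together had a median of 0.01, and 6.95% of them were called.

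At day 11 after the same dose 14 of the 17 proliferation genes rose and 0 fell (median 1.15), with Birc5 at 29.4 to 37.6 CPM against 9.25 to 11.4 CPM (1.70 ± 0.18) and Top2a at 0.88 ± 0.12. By the test of the difference between days, 17 of 17 proliferation genes were called higher, 5 of 8 genes of the p53 arm lower, 1 of 6 partner kinases and later cyclins higher (Ccna2, 2.04 ± 0.29), 2 of 13 RB family and E2F genes higher (E2f8, 2.35 ± 0.49, and E2f2, 2.76 ± 0.72), 2 of 8 lamina genes higher (Lbr, 0.96 ± 0.23, and Tmpo, 0.55 ± 0.14), 0 of 18 genes of senescence-associated secretion, and 4 of 24 regulators higher, including Ezh2 (1.27 ± 0.21) and Cks1b (1.00 ± 0.20). The value of E2f2 rests on day 11 libraries at 0 to 0.962 CPM at 0 Gy, near the limit of 3 counts, so its size is uncertain. At 7 Gy and day 11 itself the other lists held 0 calls of 8 in the p53 arm and 0 of 8 in the lamina. In 3 lists 1 gene each was called, and higher, among the 6 partner kinases and later cyclins (Ccna2, 1.19 ± 0.25), the 13 RB family and E2F genes (E2f8, 1.44 ± 0.29) and the 24 regulators (Cks1b, 0.78 ± 0.14). Of 16 genes of senescence-associated secretion, Cxcl2 was higher (1.16 ± 0.19) and Vegfa lower (-0.95 ± 0.17). Among all genes tested, 1.52% were called at 7 Gy and day 11 and 3.02% for the difference between days. Sums of some marker lists did not overlap between 0 and 7 Gy. Those are given here, and every other list overlapped on the day in question. General epithelial, basal and stratified, fibroblast and endothelial markers overlapped on both days. At day 7 the C cell list summed to 18.5 to 39.2 CPM at 0 Gy and 77.2 to 89.9 CPM at 7 Gy, mostly Calcb while Calca, the calcitonin gene, never exceeded 1.20 CPM, and the immune list to 5.53 to 9.84 CPM and 10.1 to 17.7 CPM. At day 11 the C cell list summed to 3.02 to 5.95 CPM at 0 Gy and 10.7 to 16.4 CPM at 7 Gy, follicular markers to 95.2 to 132 CPM and 78.0 to 89.8 CPM, and multiciliated markers to 30.8 to 72.6 CPM and 11.2 to 28.2 CPM. Their part in the results on the 10 genes was not tested.

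Across the 27 libraries the likeness of patterns was described with Pearson's r of log2(CPM + 1) over the 9537 genes that averaged 10 CPM or more. For r, library totals were multiplied by TMM factors, unlike for the CPM values printed above. The libraries share cultures, days and doses, so r is a description. Lmnb1 was most like Top2a (0.94), Tpx2 (0.94) and Prc1 (0.94), which act in chromosome segregation and cytokinesis. Cdkn2b was most like Tmc4 (0.95) and Cited2 (0.95), and Cdkn2a like Tmprss11e (0.87), Cnn3 (0.86) and Chchd5 (0.85). Ccnd2 was most like Ephx1 (0.92), Edn1 (0.92) and Man2b2 (0.92), and Ccnd1 like Cd81 (0.89), Stk25 (0.88) and Tssc4 (0.88). Cdkn1b was most like Tmem123 (0.92), Vegfa (0.88) and Pck2 (0.88), and Ccnd3 like Gm32999 (0.86), Tmem165 (0.83) and Slc35c1 (0.82). Cdkn2c, Cdkn2d and Cdkn1c averaged under 10 CPM and were left out. Among the other members r was highest for Cdkn2b with Ccnd2 (0.87) and lowest for Cdkn2b with Lmnb1 (-0.68).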

How the data were processed

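RNA of mTGOs was sequenced as Smart3SEQ libraries, which count tags from the 3′ ends of transcripts, in 9 groups of 3 libraries. The authors deposited estimated counts per gene. The submitters' processing notes name STAR, edgeR and GRCm39 without versions or roles, and the counting tool, its use of strand and its handling of molecular identifiers are not given in the sources used here. Of the nonzero values 56.3% were whole, so the deposited estimated counts were rounded for testing, while CPM used them as deposited. No columns were left unmapped.

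Genes with at least 10 counts over a fit were tested with edgeR 4.0.16 (R 4.3.3) by the quasi-likelihood test with TMM factors and Benjamini-Hochberg adjustment at 0.05, in 1 fit over the 9 non-irradiated libraries, 1 over the 12 libraries of each day and 1 over the 24 libraries of days 7 and 11 for the difference between days. Slopes used dose as a number. The scripts were tested on simulated data. Alternatives were DESeq2 1.42.0, its size factors in edgeR, no filter on low counts, only the compared groups, the culture as a replicate block and each library left out in turn. Library totals in place of TMM were added after seeing the data. The cultures pair the libraries: same-culture deviations from group means correlated at 0.121 or more in every pair (means 0.211 without irradiation, 0.278 at day 7, 0.347 at day 11). No 2 libraries of a group agreed within sampling noise (lowest chi-square per degree of freedom 3.39). All 10 genes are named, and of each gene list the 2 genes with the lowest adjusted p in each direction, a few of which are not reported here. The genes and lists were chosen with earlier results of these data known. Other steps used Python 3.11.15 with pandas 2.3.3, scipy 1.17.1 and matplotlib 3.10.9.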

Additional observations from a re-analysis of the deposited data

Results flagged for a closer look

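The response of Ccnd1 to 7 Gy differed between the days by a test of the difference itself. The log2 fold change was 0.70 at day 7 and 0.08 at day 11, and the day 11 response minus the day 7 response was -0.59 (edgeR quasi-likelihood test, adjusted p = 0.0206). With 1 library left out in turn, this call was lost in 6 of 12 fits (adjusted p up to 0.0788). Against the 0 Gy library of the same culture, Ccnd1 was higher in 3 of 3 cultures at day 7 and in 2 of 3 at day 11.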

How the results depend on the processing

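The 49 fold changes and slopes of genes called in a comparison by at least 1 fit kept their direction under each alternative. Among the other values of the 10 genes, compared for the replicate block and library totals, Cdkn2d from day 5 to 7 went from -0.01 to 0.01 with the replicate block and Ccnd1 at 2 Gy and day 11 from -0.03 to 0.01 with library totals. Of the 49 values, 44 kept their side of the threshold with DESeq2, 48 with DESeq2's size factors in edgeR (Ccnd1 from day 5 to 7 was lost, 0.31, adjusted p = 0.0637), 44 with library totals, 39 without a filter on low counts and 38 with the replicate block, and 39 of 40 when only the compared groups were fitted. The replicate block added 11 calls and lost none. Beyond the values given with the results, the cause of these changes was not tested.

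The number of all genes called depended more on the setting. At day 7, 2 Gy gave 24 genes, and 59 with DESeq2, 404 without the filter, 138 with the replicate block and 7 with only the compared groups. For 4 Gy the 315 genes became 1263 without the filter and 1009 with the block, and for 7 Gy 1345 became 2211 and 2193. At day 11, 2 Gy gave 0, and 1 with DESeq2, 267 without the filter and 72 with the block. For 4 Gy the 1 gene became 37, 465 and 238, and 0 with only the compared groups, and for 7 Gy 302 became 1205 without the filter and 1297 with the block. The difference between days gave 663 genes, 1234 without the filter and 1156 with the block, and the slope at day 11 gave 499, 802 with DESeq2 and 1352 with the block. Of the 10 genes, no filter called 1 at 2 Gy and day 7, 2 at 7 Gy and day 11 and 2 for the difference between days. The block called 1, 3 and 3 of these and 2 at 4 Gy and day 11, and DESeq2 called 2 at 7 Gy and day 11, beside 417 of all genes.

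With 1 library left out in turn, the genes called from day 5 to day 7 ranged between 2944 and 3321, those from day 5 to day 11 between 6455 and 6869, and those from day 7 to day 11 between 2922 and 3338. At day 7 they ranged from 8 to 24 at 2 Gy, 125 to 229 at 4 Gy and 705 to 1000 at 7 Gy, and at day 11 from 0 to 0, 0 to 1 and 60 to 165. The ranges were 443 to 606 for the difference between days, 1140 to 1919 for the slope at day 7 and 287 to 626 for that at day 11. Of the 10 genes, the same comparisons called 3 to 7, 8 to 9 and 2 to 3 for days, 0 to 0, 0 to 2 and 4 to 5 for doses at day 7, 0 to 0, 0 to 0 and 0 to 1 at day 11, 0 to 2 for the difference between days, and 4 to 5 and 0 to 2 for the slopes. Cdkn2c, Cdkn2d and Cdkn1c had 8 to 79 counts per library, and counting error was not separated from the spread between cultures.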
